A study of Mus musculus with 10 samples.

Results

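The protein prenylation enzymes examined here were 9 genes, Ggps1, Fnta, Fntb, Pggt1b, Rabggta, Rabggtb, Rce1, Icmt and Zmpste24, chosen by name among 18193 genes with a probe set of their own. Together they were read by 16 of the 45037 probe sets tested. Where a gene had several probe sets, the one with the highest mean over all arrays was taken as its main probe set and the others were set beside it. The tumors were spontaneous mammary tumors of female FVB/N-Tg(MMTVneu) mice (Tg-neu), in which the MMTV promoter drives the neu proto-oncogene in mammary epithelium, so that both groups carried the same transgene. Mice received lovastatin (Lov, 10 mg/kg) or its ethanol vehicle (Vhcl) by intraperitoneal injection 3 times a week for 6 weeks from the appearance of the first tumor. Total RNA of 5 Lov tumors (A19, A48, A50, A55, AB10) and of 5 Vhcl tumors (A45, A49, A54, A59, AB11) was hybridized to Affymetrix mouse genome arrays. The sources used here do not give the age of the mice. Nor do they say that every tumor came from a different mouse, so p-values measure the spread between tumors. Each value is a signal on a log2 scale, where a difference of 1 is a 2-fold change, and levels of different probe sets are not compared because probes bind with different strength.

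Lovastatin inhibits HMG-CoA reductase, the step of the mevalonate pathway that precedes both cholesterol and the isoprenoid lipids farnesyl diphosphate and geranylgeranyl diphosphate. Prenylation joins one of these lipids to a cysteine near the carboxyl end of Ras, Rab and other proteins and so lets them bind membranes. The enzymes act in order. Ggps1 makes geranylgeranyl diphosphate. Farnesyltransferase (Fnta with Fntb), geranylgeranyl transferase I (Fnta with Pggt1b) and Rab geranylgeranyl transferase (Rabggta with Rabggtb) attach the lipid. For proteins that end in a CaaX motif, Rce1 or Zmpste24 then cuts off the last residues in the endoplasmic reticulum, and Icmt methylates the exposed prenylcysteine. Zmpste24 is also the protease that cuts farnesylated prelamin A to lamin A. The comparison of Lov with Vhcl asked whether the transcripts of this machinery differed in tumors of mice given a drug that acts on the supply of its lipids.

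None of the 9 enzymes passed the test after adjustment. At limma's Benjamini-Hochberg adjusted p under 0.05, 0 of 9 were called, as were 0% of all probe sets, the lowest adjusted p of any probe set being 0.369. At an unadjusted p under 0.05, Zmpste24 and Rce1 were higher in Lov tumors, which is 2 of 9 against 3.13% of all probe sets, and 0 of 9 were lower, against 2.16% of all probe sets. Without moderation of the variance, the counts of 2 and 0 at the unadjusted threshold were the same, and there were again 0 adjusted calls. In no enzyme did the Lov and Vhcl groups stand wholly apart, against 0.602% of all probe sets that did. The difference, Lov minus Vhcl, was positive in 7 enzymes and negative in 2, with a median of 0.20 on the log2 scale, while over all genes the median was 0.002 and 50.7% of the differences were positive. The median size of the difference regardless of sign was 0.24 for the enzymes and 0.10 for all genes. All 9 enzymes had a signal above the median of all probe sets, while the genes and probe sets set beside them include dim ones. The 95% confidence intervals of all 9 main probe sets lay between 0.672-fold and 1.72-fold, and those of all 16 probe sets left out a 2-fold change in either direction. Because whole tumors were profiled, a lower share of a cell type and less RNA per cell cannot be told apart in any of these values.

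**Figure D1:**
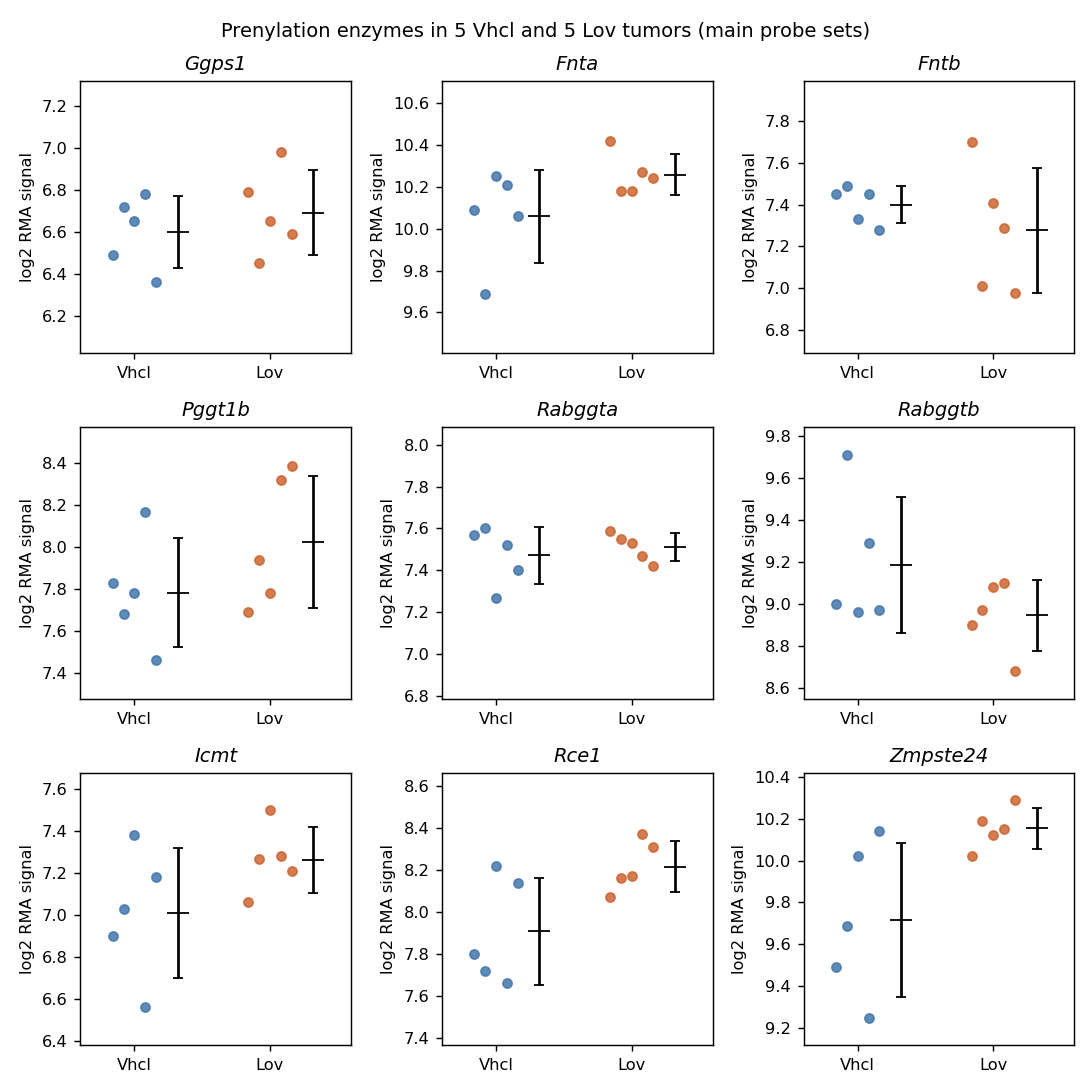
Log2 RMA signal of the main probe set of each of the 9 prenylation enzymes (vertical axis, each panel spanning the same range of log2 units) in 5 Vhcl and 5 Lov tumors. Each point is a tumor, in the order A45, A49, A54, A59, AB11 for Vhcl and A19, A48, A50, A55, AB10 for Lov, with the mean and SD to its right. The groups overlap in all 9 panels, and in those of Zmpste24, Rce1, Icmt and Fnta 3 Vhcl tumors lie below every Lov tumor.

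The promoters of the 2 enzymes with an unadjusted p under 0.05, Zmpste24 and Rce1, are shown as the 250 bases before the gene's start in RefSeq (assembly GRCm38.p6), the more upstream of 2 listed starts for Rce1. Capitals mark a match to a motif searched on both strands. These were a sterol regulatory element (SRE, TCACNCCAC), through which SREBP factors act on genes of the mevalonate pathway, a CCAAT box (CCAAT) and a GC box (GGGCGG). The Zmpste24 window is chr4:121098211-121098460 and the Rce1 window is chr19:4625646-4625895, both on the minus strand and written 5′ to 3′.
Zmpste24: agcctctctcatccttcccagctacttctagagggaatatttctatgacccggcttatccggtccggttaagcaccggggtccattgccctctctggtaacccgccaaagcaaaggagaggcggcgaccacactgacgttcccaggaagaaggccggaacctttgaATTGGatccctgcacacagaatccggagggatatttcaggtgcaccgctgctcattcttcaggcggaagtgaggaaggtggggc
Rce1: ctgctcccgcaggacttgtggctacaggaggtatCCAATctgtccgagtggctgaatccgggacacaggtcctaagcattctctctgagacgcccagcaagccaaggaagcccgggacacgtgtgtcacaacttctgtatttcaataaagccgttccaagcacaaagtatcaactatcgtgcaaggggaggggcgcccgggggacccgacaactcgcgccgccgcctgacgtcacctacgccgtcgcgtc
The capitals are a single CCAAT box in each window, read on the opposite strand in Zmpste24. No GC box lay in either window. The window of the other listed start of Rce1 held 2 GC boxes and no CCAAT box, so that the motifs found for Rce1 depend on the start chosen. The SRE letters were found in no window of the 7 enzymes searched, and in 1.05% of 32851 windows of all genes. A CCAAT box was present in 33.8% and a GC box in 32.7% of those windows, so that a match by itself is common.

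Of the 3 enzymes that act after the lipid is attached, Zmpste24 showed the widest gap between the groups among the 9. Its signal (probe set 1427923_at) in Vhcl tumors was 9.49 in A45, 9.69 in A49, 10.02 in A54, 9.25 in A59 and 10.14 in AB11. In Lov tumors it was 10.02 in A19, 10.19 in A48, 10.12 in A50, 10.15 in A55 and 10.29 in AB10. The Lov tumors lay close together at the upper end, the Vhcl tumors A45, A49 and A59 lay below all of them, and A54 and AB11 lay within the Lov range. The means were 9.72 ± 0.37 (SD, n = 5) for Vhcl and 10.15 ± 0.10 (SD, n = 5) for Lov. The difference was 0.44 with a standard error (SE) of 0.16, a 1.35-fold higher signal with a 95% confidence interval of 1.06 to 1.72. Its unadjusted limma p was 0.0177 and its adjusted p was 0.928, while the exact permutation test over all assignments of 5 against 5 tumors gave a 2-sided p of 0.0397. Leaving out each tumor in turn kept the unadjusted p under 0.05, with differences of 0.32 to 0.54.

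Rce1, the protease that removes the last residues of most CaaX proteins, was the other enzyme with a higher signal at an unadjusted p under 0.05. Its signal (1418779_at) in Vhcl tumors was 7.80 in A45, 7.72 in A49, 8.22 in A54, 7.66 in A59 and 8.14 in AB11. In Lov tumors it was 8.07 in A19, 8.16 in A48, 8.17 in A50, 8.37 in A55 and 8.31 in AB10. The Vhcl tumors thus formed a low set of A45, A49 and A59, below every Lov tumor, and a high pair of A54 and AB11 within the Lov range. The means were 7.91 ± 0.25 (SD, n = 5) for Vhcl and 8.22 ± 0.12 (SD, n = 5) for Lov. The difference was 0.31 with an SE of 0.13, a 1.24-fold higher signal, with a 95% confidence interval of 0.03 to 0.58 on the log2 scale. The unadjusted limma p was 0.0318, the adjusted p 0.932, and the exact permutation p 0.0635. Leaving out any of Vhcl A45, A49 and A59 or Lov A55 and AB10 took the unadjusted p above 0.05, with the difference at 0.25 to 0.39 over all 10 such fits.

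Icmt, the methyltransferase of the last step, had its lowest signals in the same Vhcl tumors. In Vhcl tumors Icmt (1426500_at) was at 6.90 in A45, 7.03 in A49, 7.38 in A54, 6.56 in A59 and 7.18 in AB11. In Lov tumors it was at 7.06 in A19, 7.27 in A48, 7.50 in A50, 7.28 in A55 and 7.21 in AB10. A45, A49 and A59 were again below every Lov tumor, and A54 was above all Lov tumors but A50. The means, 7.01 ± 0.31 for Vhcl and 7.26 ± 0.16 for Lov (SD, n = 5 each), differed by 0.25 with an SE of 0.15. That difference did not pass the test (limma unadjusted p = 0.110, adjusted p = 0.971) and its interval ran from 0.95-fold to 1.49-fold. Without Vhcl A54 it was 0.35, with an unadjusted limma p of 0.0302, and without Vhcl A59 it was 0.14, with an unadjusted limma p of 0.284. Leaving out each of the other tumors kept the unadjusted p above 0.05.

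Rce1 and Icmt, which act one after the other on CaaX proteins, varied together over the 10 tumors. Of 4 pairs of partner or consecutive enzymes compared, theirs was the one whose correlation passed adjustment over the 4. Pearson's r was 0.81 (permutation p = 0.00254, adjusted p = 0.0102) and Spearman's rho was 0.84 (permutation p = 0.00352, adjusted p = 0.0141). Without Vhcl A49 and A59, the tumors farthest from the median of Rce1, r was 0.69. Within the 8 tumors whose ID starts with A it was 0.84, and with each group's mean subtracted it was 0.74 (exact permutation p = 0.0430). The correlation did not hold, at r = 0.42 (permutation p = 0.227), once each gene was set against the median of its own chromosome, as described next.

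**Figure D2:**
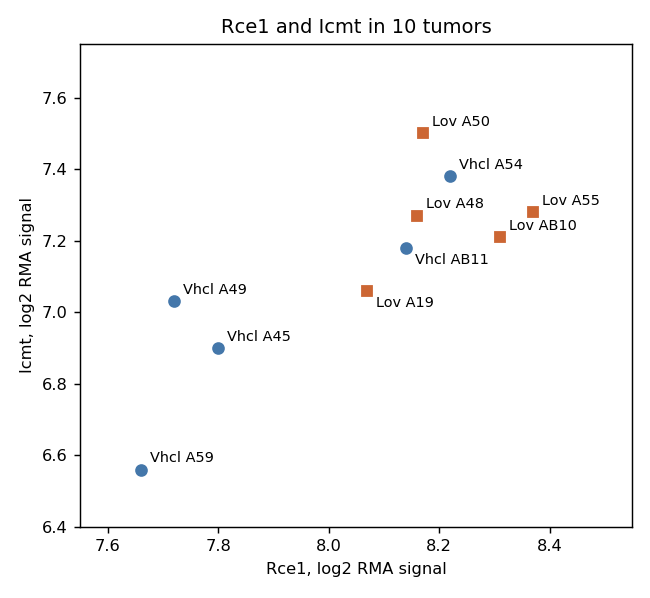
Log2 RMA signal of Rce1 (horizontal axis) and Icmt (vertical axis) in each of 5 Vhcl tumors (circles) and 5 Lov tumors (squares). Vhcl A45, A49 and A59 lie at the lower left, below every Lov tumor on both axes, and r over the 10 tumors was 0.81.

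Zmpste24 and Icmt lie on the same chromosome, 4, and many other genes of that chromosome were low in Vhcl A45 and A59, though not in A49. For each tumor, the deviation of every gene above the median signal from its mean over the 10 tumors was taken, and the median of these deviations over the chromosome was computed. On chromosome 4, over 725 genes, it was -0.41 in Vhcl A45, 0.00 in A49, 0.13 in A54, -0.25 in A59 and 0.09 in AB11. In Lov tumors it was 0.02 in A19, 0.12 in A48, 0.18 in A50, 0.13 in A55 and 0.02 in AB10. A45 and A59 stood well below all others, and the group means differed by 0.18 (exact permutation p = 0.135). With the chromosome's median subtracted from each tumor, the Zmpste24 difference was 0.25 (SE 0.12, unadjusted p = 0.0563, limma) and no longer passed at 0.05. By the same step the Icmt difference became 0.07 (unadjusted p = 0.541), while that of Rce1, on chromosome 19, was 0.32 (unadjusted p = 0.0276). Among the 1095 measured genes of chromosome 4, 118 (10.8%) were higher in Lov tumors at an unadjusted p under 0.05, against 514 of 17039 genes elsewhere (3.02%). What underlies the shift of the chromosome was not tested.

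**Figure D3:**
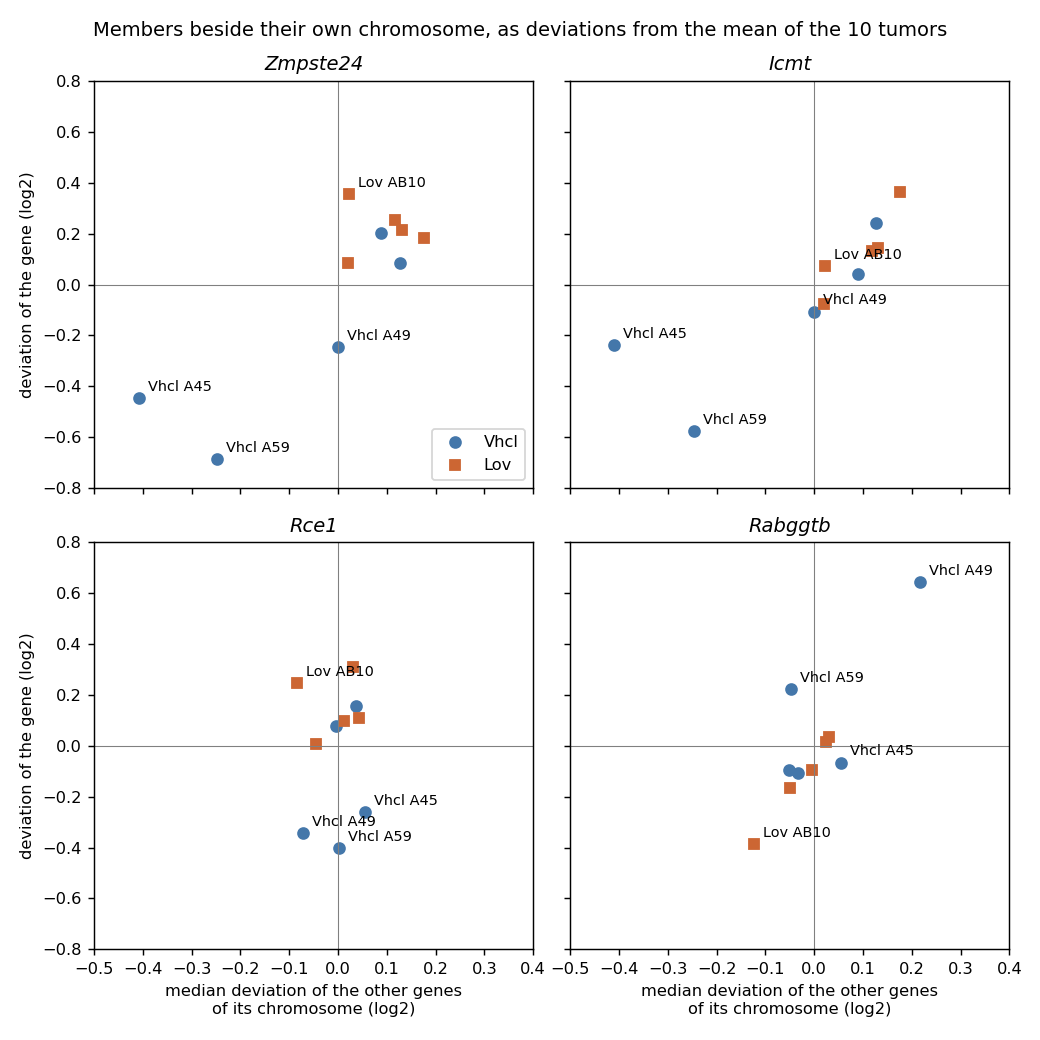
Deviation of Zmpste24, Icmt, Rce1 and Rabggtb from their own mean over the 10 tumors (vertical axis, log2) against the median deviation of the other genes on their chromosome (horizontal axis, log2), for 5 Vhcl tumors (circles) and 5 Lov tumors (squares). Vhcl A45 and A59 are at the lower left for Zmpste24 and Icmt, at chromosome medians of -0.41 and -0.25, whereas for Rce1 the same tumors are low at chromosome medians near 0.

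The genes whose signal followed Zmpste24 most closely over the 10 tumors were Mknk2 (Pearson's r = 0.98), a kinase of the translation factor eIF4E, the RING finger protein Rnf11 (0.97), Tmem234 (0.97), Smim1 (0.97) and Arid1a (0.95), a subunit of SWI/SNF chromatin remodelers. Of these 5, 4 (all but Mknk2) lie on chromosome 4. An r above 0.9 with Zmpste24 was reached by 70 genes, of which 39 (55.7%) lie on chromosome 4, the chromosome of 6.04% of the 18134 genes that could be placed.

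In the same tumors the mean of 6 luminal epithelial markers (Krt8, Krt18, Krt19, Epcam, Cdh1 and Erbb2) ran the other way. It was 10.01 in Vhcl A45, 10.24 in A49, 9.99 in A54, 10.41 in A59 and 9.88 in AB11, and between 9.65 and 9.94 in the Lov tumors. Both groups lay above the median signal of their arrays (4.98 to 5.05). The difference was -0.28 (exact permutation p = 0.0317), although 0 of the 6 markers passed an unadjusted limma p of 0.05. With this mean as a covariate the Zmpste24 difference was 0.13 (unadjusted p = 0.461) and that of Rce1 0.10 (unadjusted p = 0.507). The part of cell composition in these differences was not tested. Markers of tissue beside the tumor stood out in single tumors of both groups: 5 salivary gland markers had a mean of 11.68 in Vhcl AB11 and 7.63 in Vhcl A59 against 3.52 to 5.96 elsewhere, and 5 skeletal muscle markers a mean of 8.52 to 8.77 in Vhcl A54, Vhcl A59 and Lov A55 against 4.28 to 6.0 elsewhere. On the first principal component, with 23.0% of the variance and its sign set to make the Lov mean positive, Vhcl A59, A45 and A49 were lowest. They were at -65.3, -19.8 and -16.6. Lov A19, at -15.8, lay within the Vhcl range. Without Lov A19 and Vhcl AB11 the difference was larger, at 0.58 for Zmpste24 and 0.40 for Rce1. These tumors lay against the group difference. A19 was the lowest Lov tumor for both enzymes, and AB11 was the highest Vhcl tumor for Zmpste24. With only Vhcl A59 left out, whose salivary gland and muscle markers were also high, the difference was smaller, at 0.32 for Zmpste24 and 0.25 for Rce1.

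Among the attaching enzymes, Fnta, the alpha subunit that farnesyltransferase and geranylgeranyl transferase I share, was at 10.09, 9.69, 10.25, 10.21 and 10.06 in Vhcl tumors A45, A49, A54, A59 and AB11 (1447904_s_at). In Lov tumors A19, A48, A50, A55 and AB10 it was at 10.42, 10.18, 10.18, 10.27 and 10.24. The lowest value was that of Vhcl A49; A45 and AB11 also lay below every Lov tumor, while A54 and A59 lay within the Lov range. The means were 10.06 ± 0.22 and 10.26 ± 0.10 (SD, n = 5 each), and the difference of 0.20 (SE 0.11) did not pass the test (limma adjusted p = 0.971, unadjusted p = 0.110). Without Vhcl A49 it was 0.11 (unadjusted p = 0.283), and with the log2 ratio of 3′ to 5′ beta-actin probes, a measure of RNA quality, as a covariate it was 0.29 (unadjusted p = 0.0251). A second Fnta probe set, 1417465_at, gave 0.14.

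Fntb, the beta subunit that makes the pair a farnesyltransferase, was narrow in Vhcl tumors and wide in Lov tumors. Its signal (1434309_at) ran from 7.28 to 7.49 in Vhcl tumors and was 7.70 in Lov A19, 7.01 in A48, 7.41 in A50, 7.29 in A55 and 6.98 in AB10. Lov tumors thus held both the highest value and the 2 lowest. The means of 7.40 ± 0.09 and 7.28 ± 0.30 (SD, n = 5 each) differed by -0.12 with an SE of 0.14 (limma adjusted p = 0.988). Leaving out each tumor in turn moved that difference between -0.23, without Lov A19, and -0.05, without Lov AB10.

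Pggt1b, the beta subunit of geranylgeranyl transferase I, was at 7.83, 7.68, 7.78, 8.17 and 7.46 in Vhcl tumors A45, A49, A54, A59 and AB11 (1438230_at). In Lov tumors A19, A48, A50, A55 and AB10 it was at 7.69, 7.94, 7.78, 8.32 and 8.39. The 2 highest values belonged to Lov tumors A55 and AB10, and the rest of the groups overlapped. The difference of 0.24 (SE 0.17) did not pass the test (limma adjusted p = 0.979), and the 3 other Pggt1b probe sets gave 0.04 to 0.24. It was 0.15 without Lov AB10 and 0.16 without Vhcl AB11.

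Neither subunit of Rab geranylgeranyl transferase passed the test. Rabggta (1426046_a_at) was the steadiest of the enzymes, from 7.27 to 7.60 in Vhcl tumors and from 7.42 to 7.59 in Lov tumors. Its difference was 0.04 with a 95% confidence interval of 0.90-fold to 1.18-fold (limma adjusted p = 0.993), and it turned to -0.01 without Vhcl A54. Rabggtb (1419553_a_at), the catalytic beta subunit, was at 9.0, 9.71, 8.96, 9.29 and 8.97 in Vhcl tumors A45, A49, A54, A59 and AB11. In Lov tumors A19, A48, A50, A55 and AB10 it was at 8.90, 8.97, 9.08, 9.10 and 8.68. Vhcl A49 stood highest and Lov AB10 lowest, with the other tumors between. The difference of -0.24 (SE 0.15) did not pass the test (limma adjusted p = 0.979, unadjusted p = 0.143). A49 also had the highest median of chromosome 3, the chromosome of Rabggtb, at 0.22, and AB10 the lowest, at -0.12. Neither was particular to chromosome 3. AB10 was below 0 on every chromosome but 4, from -0.154 on chromosome 2 to -0.072 on chromosome 10. A49 was also high on chromosomes 2, 6, 11 and 17, at 0.188 to 0.251. With the chromosome 3 median subtracted the Rabggtb difference was -0.19. Without Vhcl A49 it was -0.11, and with the luminal marker mean as a covariate it turned to 0.07, so that no direction can be given for Rabggtb.

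Ggps1, which supplies the geranylgeranyl lipid, gave different signs in different probe sets. Its main probe set (1419506_at) ran from 6.36 to 6.78 in Vhcl tumors and from 6.45 to 6.98 in Lov tumors, a difference of 0.09 with an SE of 0.12 (limma adjusted p = 0.988). Leaving out each tumor in turn moved it between 0.02, without Lov A55, and 0.15, without Lov A48. The other probe sets gave -0.09, 0.19 and -0.12. The probe set at 0.19, 1419505_a_at, had 4 of 5 Vhcl tumors below every Lov tumor, with an unadjusted limma p of 0.0715 and an exact permutation p of 0.0397. No direction can be given for the gene from these 4 probe sets.

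**Figure D4:**
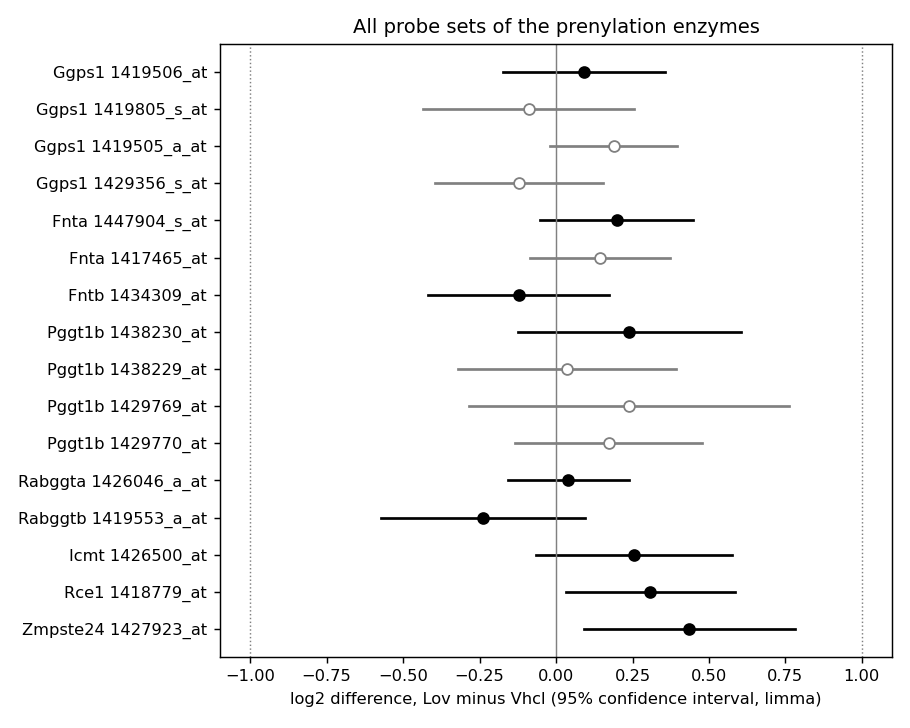
Difference in log2 signal, Lov minus Vhcl (horizontal axis), for all 16 probe sets of the prenylation enzymes, with 95% confidence intervals from limma. Filled points are main probe sets and open points the others; dotted lines mark a 2-fold change, which no interval reaches, and the intervals of Zmpste24 and Rce1 are the main ones that lie wholly above 0.

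The subunits of one enzyme did not vary together over the 10 tumors beyond what permutation gives. Pearson's r was -0.04 for Fnta with Fntb (permutation p = 0.914), 0.35 for Fnta with Pggt1b (permutation p = 0.330) and 0.43 for Rabggta with Rabggtb (permutation p = 0.210). Spearman's rho was -0.01, 0.44 and 0.35 for the same pairs (permutation p = 0.977, 0.201 and 0.317), and the adjusted p was 0.401 or more for each of these r and rho values. Without the 2 tumors farthest from the median of the first gene, r was -0.24, 0.75 and 0.52.

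The enzymes' lipids, helpers and substrates were read from 6 lists that together named 103 genes, of which 91 were measured. At limma's adjusted p under 0.05, 0 of 91 were called. At an unadjusted p under 0.05, 8 of 91 were higher and 1 was lower in Lov tumors, against 3.13% and 2.16% of all probe sets. Of the isoprenoid supply, 0 of 6 measured genes passed in either direction, with a median difference of -0.01. Among these, Fdps, which makes farnesyl diphosphate, was at 8.46 ± 0.59 in Vhcl and 8.30 ± 0.16 in Lov tumors (SD, n = 5 each). Hmgcs1, upstream of the step that Lov inhibits, was at 8.72 ± 0.41 and 8.64 ± 0.14 (SD, n = 5 each). Of 6 other users of the same lipids, Dhdds, a dolichol synthase subunit, was higher by 0.26 (unadjusted p = 0.0316).

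Of 14 escort, solubilizing and turnover proteins, Lypla2, a thioesterase that removes palmitate from proteins, was higher by 0.34 (unadjusted p = 0.0210). Chm, the escort protein that presents Rab proteins to Rabggta and Rabggtb, differed by 0.07 (unadjusted p = 0.697). None of the 16 Ras family substrates passed in either direction, and their median difference was 0.01. Of 17 other CaaX proteins, the phosphatase Ptp4a2 was higher by 0.63 (SE 0.21, unadjusted p = 0.0126), the chaperone Dnaja2 was higher by 0.19 (unadjusted p = 0.04996), and the mitotic kinesin Cenpe was lower (-0.58, SE 0.24, unadjusted p = 0.0359). Lmna, whose farnesylated product Zmpste24 cuts, differed by -0.24 (SE 0.20, unadjusted p = 0.253).

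Of 32 Rab proteins, the substrates of Rabggta and Rabggtb, 4 were higher and 0 lower at an unadjusted p under 0.05, beside the same 3.13% and 2.16% of all probe sets. They were Rab10 (0.30, unadjusted p = 0.0137), Rab1b (0.28, unadjusted p = 0.0213), Rab9 (0.23, unadjusted p = 0.0292) and Rab2a (0.41, unadjusted p = 0.0310), and the median over the list was 0.03. Rab10, which acts in exocytosis, was the 1 gene of the 91 whose groups did not overlap, against 0.602% of all probe sets, with Vhcl tumors from 9.66 to 10.20 and Lov tumors from 10.21 to 10.31. Its exact permutation p of 0.00794 is the smallest that 5 against 5 tumors allow, and its limma adjusted p was 0.926. Of the 8 listed genes that were higher, Dhdds, Lypla2, Ptp4a2 and Rab2a lie on chromosome 4, which holds 6 of the 91. With each chromosome's median subtracted, 2 of the 8, Rab10 and Rab1b, kept an unadjusted p under 0.05.

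**Figure D5:**
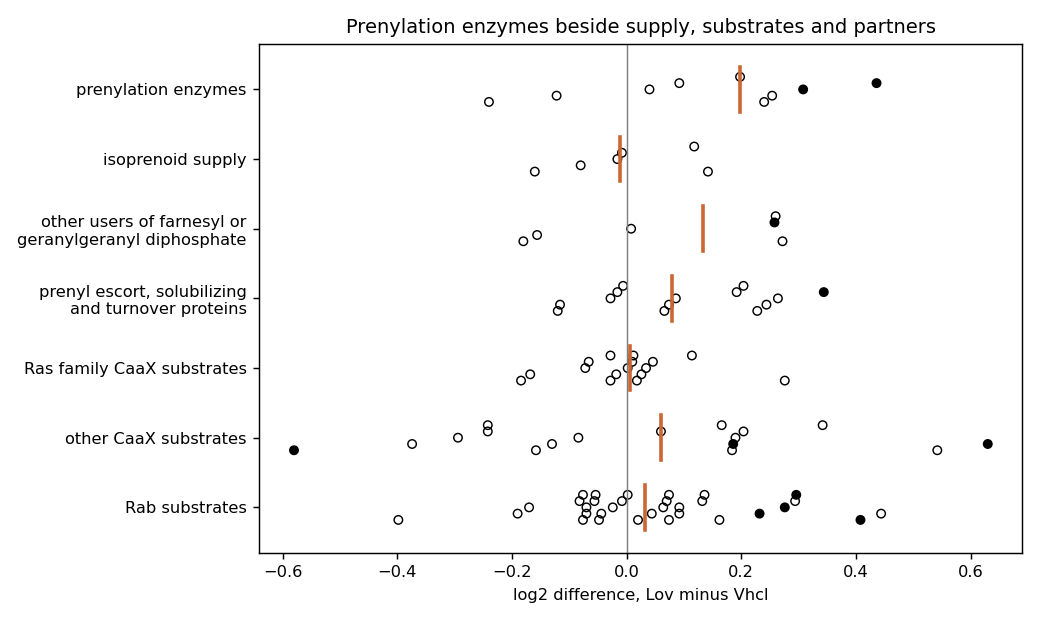
Difference in log2 signal, Lov minus Vhcl (horizontal axis), of each of the 9 prenylation enzymes and of the 91 measured genes of 6 related lists (one line per list). Each point is a gene, filled where the unadjusted limma p was under 0.05, and the vertical bar is the list's median, 0.20 for the enzymes and between -0.01 and 0.13 for the other lists.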

How the data were processed

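The authors summarized and normalized the array intensities by Robust Multi-array Analysis (RMA, named with affy in the submitters' processing notes, without a version) and deposited the result as log2 signals with 2 decimals. RMA compresses differences of dim probes, and a gene whose probe set is shared with another gene has no value of its own. The labels call the controls both vehicle-treated and untreated, and the former is used here. The 64 array control probe sets were left out. Of 45037 probe sets, 34945 carried 1 gene symbol in the platform annotation, 932 several and 9160 none. Genes were placed on chromosomes, and promoters read, from RefSeq (GRCm38.p6).

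Lov was compared with Vhcl over all probe sets with limma 3.58.1 in R 4.3.3 (lmFit and eBayes, 2-sided, Benjamini-Hochberg adjustment), and p-values given as unadjusted come from the same fit. The script was tested on simulated data. Single enzymes were also tested by exact permutation over all assignments, and pairs by permutation with 100000 resamples, or all assignments where called exact. Genes outside the enzymes were named where their unadjusted p was under 0.05, up to 4 a list. Of the other listed genes, Fdps, Hmgcs1, Chm and Lmna were chosen for their role after their values were seen. One further list of substrates is not reported here. The enzymes, lists and tests were chosen with earlier results of these data known. Alternatives covered the prior, array weights, scaling, covariates, a filter on low signals, the probe set of a gene and left-out tumors. The luminal covariate and the subtraction of the chromosome's median were chosen after seeing the data. The number of arrays limits the precision.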

Additional observations from a re-analysis of the deposited data

How the results depend on the processing

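Over the 9 enzymes, 194 of 207 values under alternatives with a test kept their direction and their side of an unadjusted p of 0.05. The 9 values as ratios of mean linear signals, which have no test, kept their direction. This count includes choices of probe set that could not change the difference of an enzyme with a single one, and enzymes far above 0.05 had little room to cross it. Of 24 alternatives each, 7 took Rce1 and 2 took Zmpste24 to an unadjusted p above 0.05. With the luminal marker mean as a covariate, Rabggtb turned to 0.0706, 0 enzymes were higher at that threshold, and over all probe sets 521 were higher and 535 lower, against 1408 and 971. With the chromosome's median subtracted, 1 enzyme (Rce1) was higher and r of Rce1 with Icmt was 0.42. With only probe sets above the median signal, 894 were higher and 594 lower. With a covariate for RNA quality, the log2 ratio of 3′ to 5′ beta-actin probes, 1484 were lower and the count of higher enzymes stayed at 2, with Fnta gained (unadjusted p = 0.0251) and Rce1 lost (unadjusted p = 0.0552). Without Lov A19 and Vhcl AB11, 1535 were lower and 4 passed adjustment.

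Leaving out each tumor in turn gave 1 to 3 higher enzymes (3 without Vhcl A54, when Icmt also passed) and 0 to 1 adjusted calls over all probe sets. Rabggta then ran from -0.0105 (without Vhcl A54) to 0.072. The r of Fnta with Fntb ran from -0.44 to 0.35 over the same fits, was 0.0299 within the tumors whose ID starts with A and 0.16 with group means subtracted. No paired analysis was possible because the tumor IDs pair no tumors across the groups. The causes of these changes were not tested.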

Other observations

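Median shifts of a whole chromosome in a single tumor were not limited to chromosome 4. Of 200 pairs of chromosome and tumor, 11 had a median deviation beyond 0.15 in size. Among them, Vhcl A49 was high on chromosomes 2, 3, 6, 11 and 17, at 0.188 to 0.251, and chromosome 3 holds Rabggtb.

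The spread of the enzymes among tumors was narrower with Lov in 6 of 9, with SDs from 0.07 to 0.37 over both groups, while 59.5% of all genes had a smaller SD in Lov tumors. Vhcl A45, A49 and A59 were the lowest of the 10 tumors for Zmpste24, Rce1 and Icmt alike. They also had the lowest scores on the first principal component of all probe sets, so they differed from the other tumors in more than these enzymes. A low score there is not a low signal, because the sign of the component was set to make the Lov mean positive. Lov A19 scored close to A49 and A45.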
